A study of Homo sapiens with 4 samples.

Results

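The genes described here encode the subunits of the transcription factor NF-kB and the inhibitors that NF-kB switches on to restrain itself. They were chosen by name, as 10 genes: the subunit genes NFKB1, NFKB2, REL, RELA and RELB, and, grouped as inhibitor or survival genes, NFKBIA, NFKBIE, NFKBIZ, TNFAIP3 and BIRC3. Of these, 9 were measured among 18417 genes, each by 1 probe set, and the array values of BIRC3 were not analysed here. RNA of cells labelled as PC3, an established prostate cancer line of bone metastatic origin, was measured on Affymetrix gene arrays. PC3-PDEF cells are described as overexpressing PDEF (prostate-derived ETS factor, encoded by SPDEF), and PC3-SCR cells as carrying the empty pBABE vector. The study describes its cells with PDEF as stably transfected, and no source used here says whether they were 1 clone or a pool. Each group had 2 arrays, and all cells were grown in the same serum-containing medium with antibiotics. The comparison asks how these genes differed between cells with and without added PDEF.

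NF-kB acts as pairs of subunits that share a DNA-binding region. In resting cells, proteins of the IkB family hold the pairs in the cytoplasm. Signals from interleukin-1, TNF and related receptors activate the IKK kinase, which marks IkB for destruction, and the freed pairs enter the nucleus. Among the genes that they activate are those of IkB-alpha (NFKBIA) and A20 (TNFAIP3), so the pathway is shut off by its own products. In PC3 cells NF-kB is known to be active without added stimulus.

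Sites of the kind that NF-kB binds stood before most of these genes in the reference genome. The RefSeq promoter table (GRCh38.p14, windows of 300 bases around each start) gave 13 windows for 8 of the 10 genes, all but RELB and NFKBIE. Both strands were searched for the kappa B consensus. It matched in 9 of the 13 windows and in 7 of the 8 genes, RELA being the gene without a match, against 11.3% of all 35116 windows and 13.3% of all 27305 genes. Several of the genes were chosen as ones that NF-kB switches on, so a high share was to be awaited from the choice and is only a description. A match is only a string of letters, and binding was not measured. The stretches below are shown because genes with like sites had unlike array values: the first 3 genes fell strongly, NFKB1 did not pass the test, NFKB2 fell slightly and REL rose. They run 5′ to 3′ on the strand of the gene, with the consensus matches in capitals.
NFKBIA: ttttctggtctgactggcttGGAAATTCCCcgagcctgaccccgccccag
NFKBIZ: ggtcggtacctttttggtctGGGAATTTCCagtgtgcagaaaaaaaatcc
TNFAIP3: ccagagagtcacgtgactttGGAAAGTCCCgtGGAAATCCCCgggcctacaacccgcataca
NFKB1: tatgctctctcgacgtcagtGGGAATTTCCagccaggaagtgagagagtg
NFKB2: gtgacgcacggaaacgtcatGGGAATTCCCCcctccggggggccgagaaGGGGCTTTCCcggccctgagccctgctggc
REL: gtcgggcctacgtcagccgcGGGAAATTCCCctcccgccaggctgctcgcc
These lie at chr14:35404801-35404850 (minus strand) for NFKBIA, at chr3:101827747-101827796 for NFKBIZ, at chr6:137867172-137867233 for TNFAIP3, at chr4:102501290-102501339 for NFKB1, at chr10:102394451-102394529 for NFKB2 and at chr2:60881507-60881557 for REL, the last 5 on the plus strand. The same 10 letters, GGGAATTTCC, were matched before NFKBIZ and NFKB1 and, on the other strand, before NFKBIA and REL. In NFKB2 and in REL, matches on both strands overlap and make the capitals 11 letters long. Each gene is shown by 1 window with a match. NFKBIZ and NFKB2 had a further window with a match, that of NFKBIZ reading GGGGTTTCCC. NFKB1 and NFKB2 each also had 1 window without a match.

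RELA is shown for another reason: just before its start stand letters of the kind bound by the ETS family, to which PDEF belongs. In capitals are CCGGAT, the kind of core that PDEF is known to prefer, and CCGGAA on the opposite strand, the core of most ETS factors, which share a T.
RELA: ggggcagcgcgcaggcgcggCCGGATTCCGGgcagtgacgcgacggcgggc
This stretch lies at chr11:65662927-65662977 on the minus strand. Among all windows CCGGAT was found on either strand in 7.12% and CCGGAA in 17.2%. Among the 8 genes CCGGAT was found in 1 of the 2 windows of RELA, in 1 of the 2 windows of NFKBIZ and in 1 of the 3 windows of NFKB2, while CCGGAA was found in RELA only.

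Some facts of the arrays bear on every value that follows. Signals are on a log2 scale as the authors deposited them, and a probe's level cannot be compared with another probe's. The background gauge, the bounds and the summed signals below do set probes beside each other, and are therefore rough guides. The gauge of background was the highest of 338 olfactory receptor genes, which was 5.65 and 5.75 in the PC3-PDEF arrays and 5.94 and 6.01 in the PC3-SCR arrays. SPDEF had signals of 6.85 and 6.73 in PC3-PDEF, against 5.99 and 6.06 in PC3-SCR. CTNNA1 and STAT3, genes known from other work to be lost in PC3 cells, had signals of 9.76 and 9.86 and of 9.06 and 9.05 in PC3-PDEF, against 4.77 and 4.07 and 4.51 and 4.70 in PC3-SCR, where neither was above the gauge. For these genes the arrays labelled PC3-PDEF go against the PC3 label, and whether those cells are PC3 was not tested. Every difference below is therefore one between the cells labelled PC3-PDEF and those labelled PC3-SCR, in which added PDEF cannot be told apart from another origin of the cells. Of 12 genes of embryonic kidney and neurons measured, 7 were called higher in PC3-PDEF and 1 lower, by the rule given below. By that rule 26.7% of all genes were higher and 24% lower. The higher ones were EYA1, SALL1, WT1, INA, NEFL, NEFM and LIN28B. PAX8, a kidney gene, was lower, with 5.45 and 5.32 in PC3-PDEF, not above the gauge, against 6.25 and 6.18 in PC3-SCR. PAX2, LHX1, SIX2 and NEFH were not called. Summed linear signals of the 12 were 3356 and 3641 in PC3-PDEF, against 739.7 and 740.2 in PC3-SCR. NEFM, a neurofilament gene, made up 1652 and 1898 of these sums in PC3-PDEF, against 27.9 and 37.8 in PC3-SCR, and the sums without it were 1704 and 1744 in PC3-PDEF, against 711.8 and 702.4 in PC3-SCR. Of 4 prostate epithelial markers measured, HOXB13 was above the gauge in all arrays, with 6.78 and 6.74 in PC3-PDEF, against 6.63 and 6.65 in PC3-SCR (adjusted p = 0.259), while KLK2, KLK3 and ACP3 were not above it in any array, ACP3 being called higher in PC3-PDEF (adjusted p = 0.0216). Of 8 general epithelial markers, 6 were lower in PC3-PDEF and none was higher, with summed signals of 1390 and 1450 in PC3-PDEF and of 2388 and 2309 in PC3-SCR. The part of these differences in the results on NF-kB genes was not tested. In RNA of whole cultures, a lower signal from fewer expressing cells and from less RNA per cell cannot be told apart.

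The strongest falls among these genes were those of NFKBIZ, TNFAIP3 and NFKBIA. Of the 9 genes measured, NFKBIA, NFKBIZ, TNFAIP3, RELB and NFKB2 fell in PC3-PDEF, REL rose, and RELA, NFKB1 and NFKBIE did not pass the test. Calls were made at a Benjamini-Hochberg adjusted p under 0.05 in a limma fit of all 18417 genes, and SE below is the standard error of the log2 fold change in that fit. By this rule 50.7% of all genes were called, 26.7% as higher and 24% as lower. Falls of at least 2-fold were seen for 3 of the 9 genes and for 6.07% of all genes, and rises of that size for none of the 9 and for 8.67% of all genes. For 7 of the 9 genes every PC3-PDEF array lay on one side of the PC3-SCR arrays, lower for 6 and higher for 1, and this held for 74.7% of all genes (39.7% lower and 35% higher). The median log2 fold change of the 9 genes was -0.28, against -0.05 over all genes, with -0.18 for the 5 subunits. It was -2.18 for the 4 measured genes grouped as inhibitors. Among these, NFKBIE was near background, and NFKBIZ encodes a protein that also helps to activate NF-kB targets. With 2 arrays in each group, the smallest two-sided p of an exact permutation test is 0.333. The sources do not tell whether separate cultures were used, and the p-values may therefore rest on technical spread alone.

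**Figure D1:**
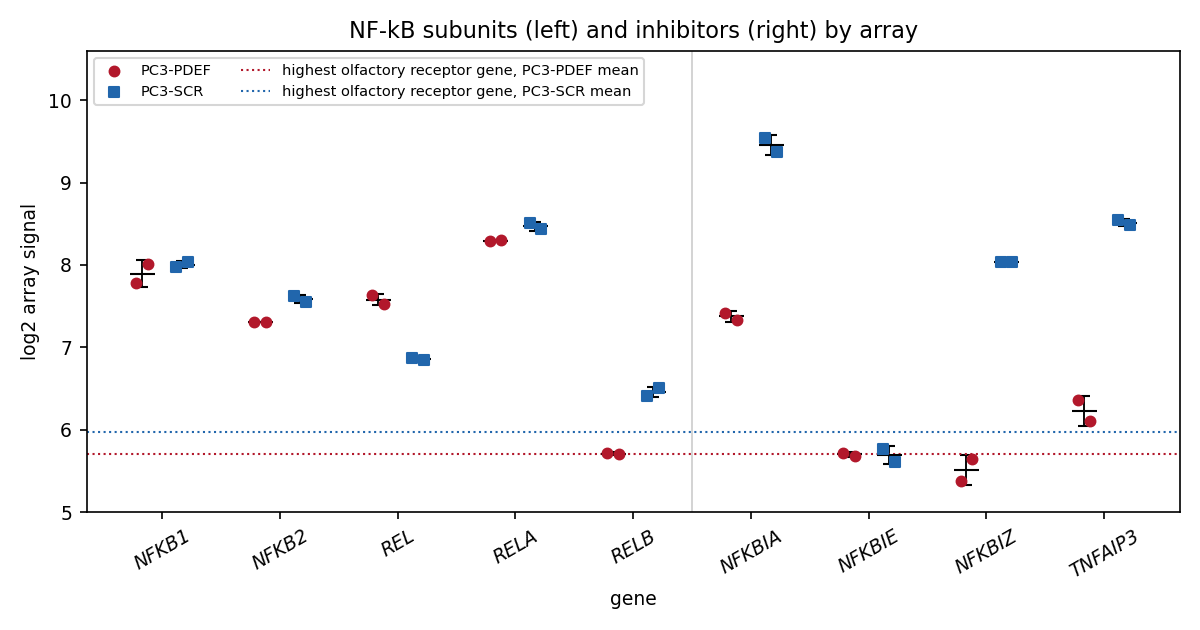
Log2 array signal (vertical axis) of the 5 NF-kB subunit genes and the 4 genes grouped as inhibitors (horizontal axis) in the 2 PC3-PDEF arrays (circles) and the 2 PC3-SCR arrays (squares), with group mean and SD (black bars, n = 2) and the highest olfactory receptor gene, averaged per group (dotted lines). NFKBIA, NFKBIZ and TNFAIP3 lie far lower in PC3-PDEF, REL lies higher, and NFKB1 and NFKBIE overlap.

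RELA encodes p65, the subunit that with p50 makes up the most common NF-kB pair and carries the activating domain. Its log2 signals were 8.29 and 8.30 in the PC3-PDEF arrays, against 8.51 and 8.43 in the PC3-SCR arrays. The PC3-PDEF arrays were both lower, but by little: the log2 fold change was -0.18 (SE 0.082, limma adjusted p = 0.125), with a 95% confidence interval of -0.38 to 0.03. After quantile normalization it passed the test (adjusted p = 0.0396). NFKB1 encodes p105, which is processed to p50. Its signals were 7.78 and 8.01 in PC3-PDEF, against 7.97 and 8.03 in PC3-SCR. The groups overlapped, and PC3-PDEF replicate 1 was the lowest array. The log2 fold change was -0.11 (SE 0.10, limma adjusted p = 0.439), with an interval of -0.36 to 0.15. For the genes of this classical pair, neither interval reached beyond 0.38 on the log2 scale.

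REL encodes c-Rel, an activating subunit best known from lymphocytes. It had signals of 7.63 and 7.53 in PC3-PDEF, against 6.87 and 6.84 in PC3-SCR. Both PC3-PDEF arrays were above both PC3-SCR arrays, and all 4 were above the gauge. REL rose by 0.73 (SE 0.085, limma adjusted p = 0.000584), which is 1.65-fold. It was the subunit gene that rose. The promoter stretches of REL and NFKBIA share the same kappa B letters, and the part of such sites in either change was not tested.

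RELB and NFKB2 encode the subunits RelB and p100, the precursor of p52, which pair in the non-canonical branch of the pathway. RELB had signals of 5.72 and 5.70 in PC3-PDEF, against 6.41 and 6.50 in PC3-SCR. The arrays did not overlap, and PC3-PDEF replicate 2 was not above the gauge, so the size is not exact. RELB fell by 0.75 (SE 0.083, limma adjusted p = 0.000487), which makes it 1.68-fold higher in PC3-SCR. NFKB2 had signals of 7.31 in each PC3-PDEF array, against 7.62 and 7.55 in PC3-SCR. It fell by 0.28 (SE 0.082, limma adjusted p = 0.0309). This small fall did not pass the test after median centring (adjusted p = 0.0605), with all probe sets in the adjustment (0.0637), or when any 1 array was left out (0.0644 to 0.115).

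NFKBIA encodes IkB-alpha, the inhibitor that is destroyed on activation and rapidly made again by NF-kB. Its signals were 7.42 and 7.33 in PC3-PDEF, against 9.54 and 9.37 in PC3-SCR. All 4 arrays were above the gauge, and the groups stood far apart relative to their spread (SD 0.064 in PC3-PDEF and 0.12 in PC3-SCR, n = 2 each). NFKBIA fell by 2.08 in log2 units (SE 0.096, limma adjusted p = 1.54e-05), a 4.23-fold difference. In size this change exceeded those of 96.6% of all genes.

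TNFAIP3 encodes A20, an enzyme that edits ubiquitin chains and stops signalling upstream of IKK. It had signals of 6.36 and 6.10 in PC3-PDEF, against 8.54 and 8.48 in PC3-SCR. The PC3-PDEF arrays were close to the gauge but above it. TNFAIP3 fell by 2.28 (SE 0.11, limma adjusted p = 1.70e-05), a 4.86-fold difference, larger than the change of 97.3% of all genes.

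NFKBIZ encodes IkB-zeta, a nuclear member of the IkB family that is induced by interleukin-1 and helps to activate a second set of NF-kB targets. Its signals were 5.38 and 5.64 in PC3-PDEF, against 8.04 and 8.03 in PC3-SCR. Neither PC3-PDEF array was above the gauge, so only a bound can be given there. Set against the gauge in place of its own value, NFKBIZ was at least 5.05-fold lower in PC3-PDEF (fitted log2 fold change -2.53, SE 0.11, limma adjusted p = 1.13e-05). The calls of NFKBIA, TNFAIP3 and NFKBIZ held with any 1 array left out, with adjusted p between 0.0127 and 0.018.

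NFKBIE encodes IkB-epsilon, an inhibitor that in mouse fibroblasts is made again later than IkB-alpha. It had signals of 5.72 and 5.68 in PC3-PDEF, against 5.77 and 5.61 in PC3-SCR. Only PC3-PDEF replicate 1 was above its gauge, and a difference may not be measurable in a transcript this close to background. The log2 fold change was 0.01 (SE 0.092, limma adjusted p = 0.938), with an interval of -0.21 to 0.23.

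Of 4 other genes of the IkB family measured, BCL3 fell and 3 did not pass the test. BCL3, a nuclear IkB protein that binds p50 and p52, had signals of 6.48 and 6.38 in PC3-PDEF, against 7.02 and 6.94 in PC3-SCR, and fell by 0.55 (SE 0.087, limma adjusted p = 0.0023). NFKBIB, the gene of IkB-beta, had 7.24 in each PC3-PDEF array, against 7.19 and 7.20 in PC3-SCR (log2 fold change 0.05, adjusted p = 0.671). NFKBIL1, named for its resemblance to IkB, had 6.76 and 6.73 in PC3-PDEF, against 6.39 and 6.57 in PC3-SCR, a difference of 0.27 (adjusted p = 0.0573) that passed the test after median centring (0.0335) and among genes above the median level (0.0202). NFKBID was not above the gauge in any array.

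In the list of the IKK complex and its canonical upstream proteins, 18 of 22 genes were measured, of which 7 rose and 7 fell while 4 were not called, with a median log2 fold change of 0.04. These are 38.9% higher and 38.9% lower, against 26.7% and 24% of all genes. CHUK, which encodes the kinase IKK-alpha, had signals of 8.97 and 9.11 in PC3-PDEF, against 7.04 and 7.17 in PC3-SCR. It rose by 1.94 (SE 0.096, limma adjusted p = 1.91e-05), which is 3.82-fold. IKBKB, which encodes the partner kinase IKK-beta, had 7.59 and 7.54 in PC3-PDEF, against 7.23 and 7.04 in PC3-SCR, and rose by 0.43 (adjusted p = 0.0106). This call was lost without PC3-PDEF replicate 1 (adjusted p = 0.121), without PC3-PDEF replicate 2 (0.105) and without PC3-SCR replicate 2 (0.0638). IKBKG, which encodes their scaffold NEMO, was not above the gauge in any array, so its fitted log2 fold change of -0.41 (adjusted p = 0.0212) has no exact size, and the call was lost with any 1 array left out (0.0673 to 0.188). BTRC, part of the ubiquitin ligase that recognises phosphorylated IkB, had 8.03 and 8.20 in PC3-PDEF, against 6.88 and 7.0 in PC3-SCR, and rose by 1.18 (adjusted p = 0.000144).

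MYD88, the adaptor of interleukin-1 and Toll-like receptors, had 5.16 and 5.0 in PC3-PDEF, against 6.70 and 6.93 in PC3-SCR. With neither PC3-PDEF array above the gauge, it was at least 2.17-fold lower there (limma adjusted p = 5.02e-05). IRAK2, a kinase-like protein of the same receptors, had 5.93 and 5.95 in PC3-PDEF, against 7.43 and 7.53 in PC3-SCR, and fell by 1.54 (adjusted p = 2.81e-05). TRADD, the adaptor of the TNF receptor, had 6.87 and 6.93 in PC3-PDEF, against 8.06 in each PC3-SCR array, and fell by 1.16 (adjusted p = 6.79e-05). RNF31, RBCK1 and SHARPIN, named after their values were seen because together they encode the ligase of linear ubiquitin chains, fell by 0.79, 0.57 and 0.88 (adjusted p = 0.000423, 0.00462 and 0.00451). The calls of RBCK1 and SHARPIN were lost without PC3-PDEF replicate 1 (0.0681 and 0.0891), PC3-PDEF replicate 2 (0.10 and 0.138) or PC3-SCR replicate 1 (0.0601 and 0.0627). IRAK1 and TRAF6, signal carriers of the interleukin-1 receptor named after their values were seen, rose by 0.59 and 0.29 (adjusted p = 0.0044 and 0.0488). The call of IRAK1 was lost without PC3-PDEF replicate 1 (0.0972), PC3-PDEF replicate 2 (0.0715) or PC3-SCR replicate 2 (0.0578), and that of TRAF6 with any 1 array left out (0.0798 to 0.225), after quantile normalization (0.117) and with all probe sets fitted (0.10). Of the whole list, fewer genes rose and fewer fell when any 1 array was left out.

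**Figure D2:**
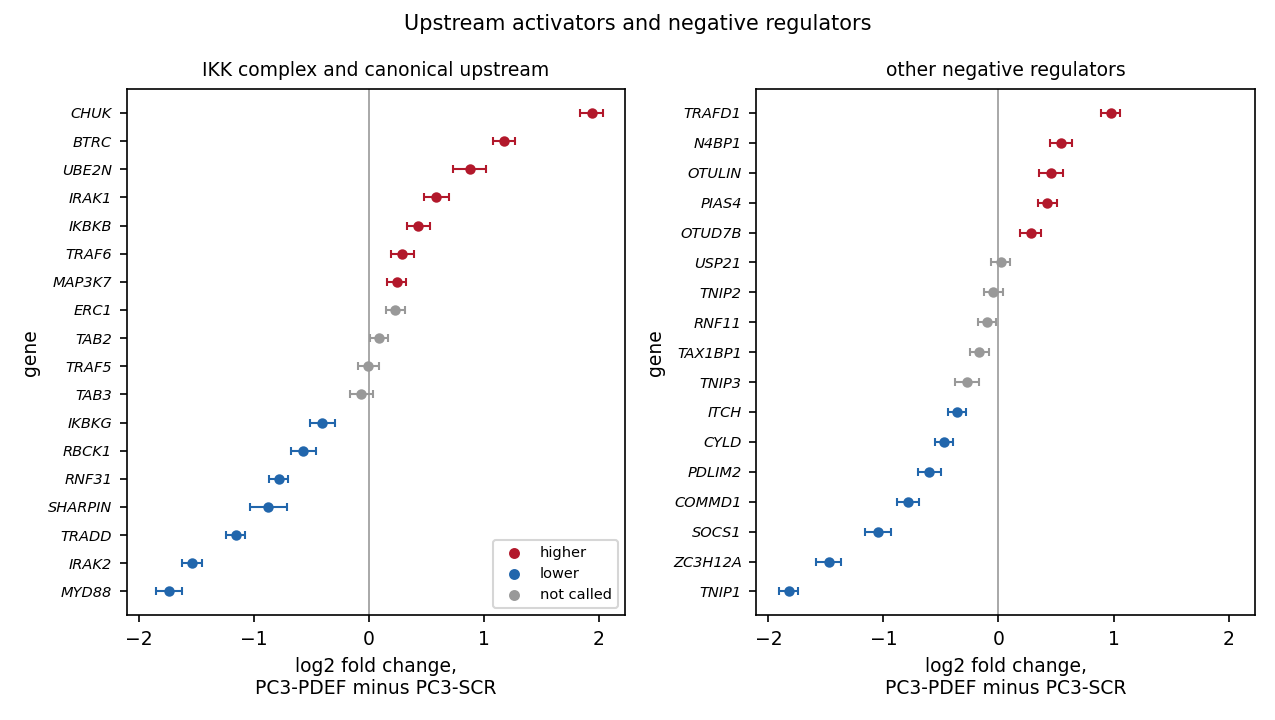
Log2 fold change between PC3-PDEF and PC3-SCR (horizontal axis) with its standard error (bars, 2 arrays per group) for 18 genes of the IKK complex and canonical upstream proteins (left) and 17 other negative regulators (right), each gene on the vertical axis; colours give the call at an adjusted p under 0.05. CHUK at 1.94 and BTRC at 1.18 lie highest on the left and MYD88, for which only a bound can be given, is drawn lowest at a fitted -1.74, and on the right TNIP1 lies lowest at -1.83.

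In the non-canonical branch, which is switched on by lymphotoxin and related ligands, 5 of 9 genes fell and none rose, with a median of -0.36. Over all genes 24% fell and 26.7% rose. LTBR, the lymphotoxin beta receptor gene, had signals of 5.74 and 5.70 in PC3-PDEF, against 8.5 and 8.27 in PC3-SCR. It fell by 2.67 (SE 0.10, limma adjusted p = 8.18e-06), although PC3-PDEF replicate 2 was not above the gauge. BIRC2, the neighbour and close relative of BIRC3, encodes cIAP1, which keeps the kinase NIK (MAP3K14) low. Its signals were 8.43 and 8.61 in PC3-PDEF, against 9.71 and 9.78 in PC3-SCR, and the gene fell by 1.23 (adjusted p = 0.000108). MAP3K14 itself was not above the gauge in any array, with 5.56 and 5.51 in PC3-PDEF, against 5.93 and 5.85 in PC3-SCR (adjusted p = 0.0127). Without PC3-PDEF replicate 1, PC3-PDEF replicate 2 or PC3-SCR replicate 1, 3 genes of this branch fell, and after median centring 2 others rose.

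Receptor genes were mostly too dim to read. Of 10 measured, 6 fell and none rose, but 7 of the 10 were not above the gauge in any array and 5 of the calls were among these. The shares of all genes were 24% lower and 26.7% higher. Without PC3-PDEF replicate 1 or PC3-SCR replicate 2, 2 fell, and without PC3-SCR replicate 1, 3 fell. IL1RAP, the shared chain of interleukin-1 receptors, was the called gene above the gauge and, named for that reason after its values were seen, had 6.91 and 6.95 in PC3-PDEF, against 7.31 and 7.35 in PC3-SCR (adjusted p = 0.00673). Its call was lost without PC3-PDEF replicate 1 (0.0599) or PC3-PDEF replicate 2 (0.0535). TNFRSF1A, the main TNF receptor gene, had 7.84 and 7.89 in PC3-PDEF, against 8.09 and 7.97 in PC3-SCR, and did not pass the test (adjusted p = 0.165). After quantile normalization TNFRSF1A passed it (limma adjusted p = 0.0475).

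Other negative regulators split, and the best-known partner of A20 fell with it. Of 17 genes measured, 7 fell and 5 rose while 5 were not called, with a median log2 fold change of -0.17. These are 41.2% lower and 29.4% higher, against 24% and 26.7% of all genes. Without PC3-PDEF replicate 1 or PC3-SCR replicate 2, 3 rose, and without PC3-PDEF replicate 2 or PC3-SCR replicate 1, 1 rose. TNIP1, whose protein ABIN1 works with A20, had signals of 7.13 in each PC3-PDEF array, against 9.0 and 8.91 in PC3-SCR, and fell by 1.83 (SE 0.083, limma adjusted p = 1.46e-05). ZC3H12A, the gene of Regnase-1, which degrades cytokine mRNAs, had 6.29 and 6.04 in PC3-PDEF, against 7.61 and 7.67 in PC3-SCR, and fell by 1.48 (adjusted p = 8.07e-05). SOCS1, a brake on cytokine receptors, had 5.98 and 5.72 in PC3-PDEF, against 6.96 and 6.84 in PC3-SCR, and fell by 1.05 (adjusted p = 0.000415), with PC3-PDEF replicate 2 not above the gauge. TNIP1 and ZC3H12A are, like NFKBIA and TNFAIP3, genes known to be induced by NF-kB. Among the genes that rose, TRAFD1, which encodes an inhibitor of Toll-like receptor signalling, and OTULIN, which encodes a deubiquitinase of linear chains, were named after their values were seen. TRAFD1 had 8.77 and 8.72 in PC3-PDEF, against 7.74 and 7.80 in PC3-SCR, and rose by 0.98 (adjusted p = 0.000147). OTULIN rose by 0.46 (adjusted p = 0.0107), a call lost without PC3-PDEF replicate 2 (0.0813), PC3-SCR replicate 1 (0.121) or PC3-SCR replicate 2 (0.0949).

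Genes whose products modify the subunits or help them to activate transcription also moved both ways. Of 14 measured, 5 rose and 6 fell while 3 were not called, with a median of -0.05. These are 35.7% higher and 42.9% lower, against 26.7% and 24% of all genes. TBK1, an IKK-related kinase, had 7.82 and 7.99 in PC3-PDEF, against 6.73 and 6.68 in PC3-SCR, and rose by 1.20 (limma adjusted p = 0.000106). IKBKE, also the gene of an IKK-related kinase, was named after its values were seen. It had 5.03 and 4.91 in PC3-PDEF, against 5.9 and 6.3 in PC3-SCR, a fitted fall of 1.13 (limma adjusted p = 0.000819). Only PC3-SCR replicate 2 was above the gauge, so this size is not exact. GSK3B, a kinase needed for full NF-kB activity in several cell types, had 8.51 and 8.56 in PC3-PDEF, against 9.81 in each PC3-SCR array, and fell by 1.28 (adjusted p = 4.60e-05). PIM1 and RPS6KA4, the genes of kinases reported to phosphorylate p65, fell by 1.15 and 1.12. The list also holds genes of deacetylases, named after their values were seen. Of these, HDAC1 and HDAC2 rose by 0.73 and 0.83, SIRT1 fell by 0.51 and HDAC3 was not called.

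**Figure D3:**
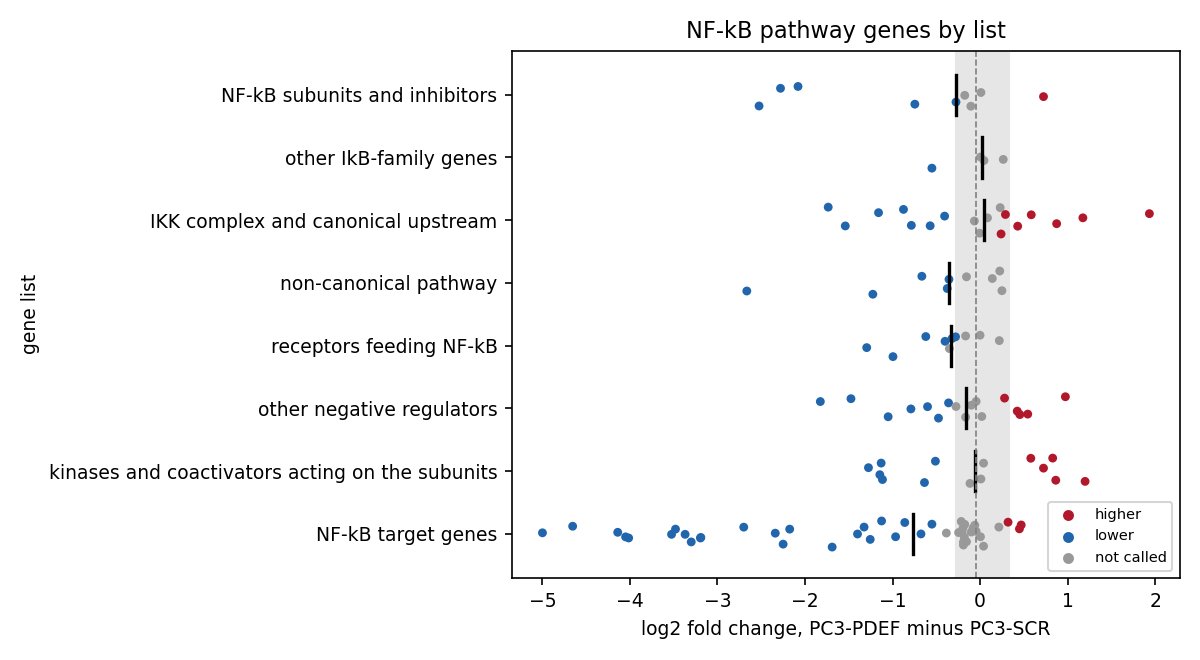
Log2 fold change between PC3-PDEF and PC3-SCR (horizontal axis) of every measured gene (points) in 8 lists of the pathway (vertical axis), with each list's median (black bar), the median of all genes (dashed line) and their middle 50% (grey band, -0.28 to 0.34). Points are coloured by the call at an adjusted p under 0.05. The target genes reach furthest to the left, down to IL1A at a fitted -5.00.

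NF-kB target genes other than the 10 genes chosen by name were also listed. Of 44 measured of 46 listed, 24 fell and 3 rose while 17 were not called, with a median log2 fold change of -0.77, against -0.05 over all genes. These are 54.5% lower and 6.82% higher, against 24% and 26.7% of all genes. BCL3 and NFKBID, described above, are 2 of the 44, and without them 23 of 42 fell. Fitted falls of at least 2-fold were found for 20 of the 44, and such falls for 6.07% of all genes. Against the gauge, 16 of the 20 kept a fall of this size, while for C3 and TNFAIP2 the bounds were 1.38-fold and 1.83-fold, and IL6 and BCL2A1 were not above the gauge in any array. The list was written with earlier results of these data known, so these counts are a description. IL1A, the gene of interleukin-1 alpha, had signals of 5.46 and 5.48 in PC3-PDEF, against 10.51 and 10.43 in PC3-SCR. With neither PC3-PDEF array above the gauge it was at least 27.3-fold lower there (limma adjusted p = 2.50e-06).

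IL1B, the gene of interleukin-1 beta, stayed well above the gauge, with 8.06 in each PC3-PDEF array, against 12.75 and 12.68 in PC3-SCR. It fell by 4.66 (limma adjusted p = 2.50e-06). CXCL8, the gene of interleukin-8, had 6.64 and 6.87 in PC3-PDEF, against 11 and 10.79 in PC3-SCR, and fell by 4.14 (adjusted p = 3.55e-06). LIF, a cytokine of the interleukin-6 family, was not above the gauge in PC3-PDEF, with 4.68 and 4.61 there, against 8.84 and 8.55 in PC3-SCR, and was at least 7.97-fold lower (adjusted p = 3.55e-06). PLAU, the gene of urokinase, named after its values were seen, had 8.38 and 8.35 in PC3-PDEF, against 12.42 and 12.34 in PC3-SCR, a 16.2-fold fall (adjusted p = 2.50e-06).

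The falls were uneven within the list. Of its 9 chemokine genes, CXCL1, CXCL2, CXCL3, CXCL5 and CXCL8 fell at least 2-fold, while CXCL10, CCL2, CCL5 and CCL20 were not above the gauge in any array. TNF itself was at background, with 4.06 and 4.17 in PC3-PDEF, against 4.28 and 4.15 in PC3-SCR. In all, 17 of the 44 genes were not above the gauge in any array, and IL6, BCL2A1 and MMP9 were called among them. SOD2, XIAP and CSF1, named after their values were seen, rose by 0.32, 0.47 and 0.45. SOD2, the mitochondrial superoxide dismutase gene and a much used NF-kB readout, had 8.87 and 8.98 in PC3-PDEF, against 8.65 and 8.56 in PC3-SCR. With 1 array left out, XIAP was called without PC3-PDEF replicate 1 only, and SOD2 and CSF1 in none of the 4 fits.

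**Figure D4:**
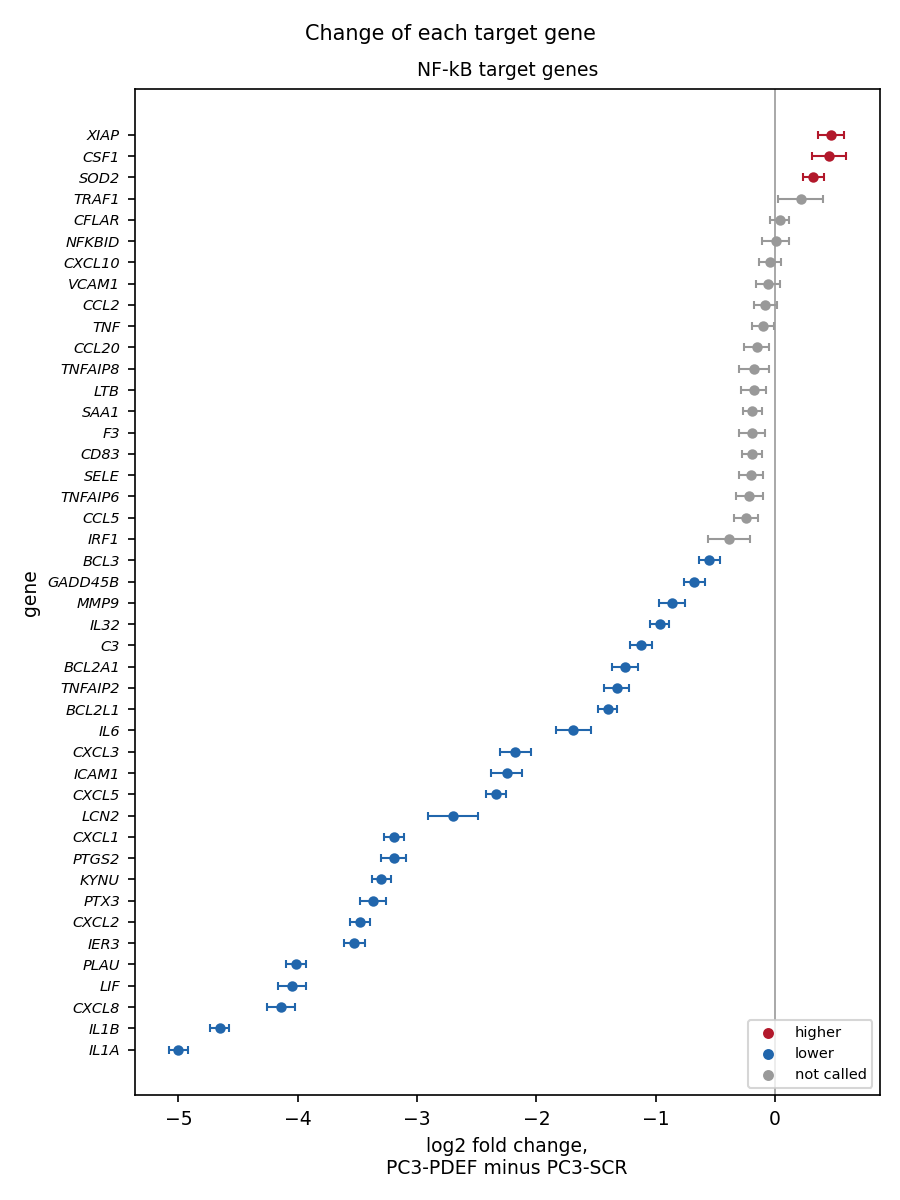
Log2 fold change between PC3-PDEF and PC3-SCR (horizontal axis) of 44 NF-kB target genes (vertical axis), with standard error (bars, 2 arrays per group), coloured by the call at an adjusted p under 0.05. The 24 genes that fell run from BCL3 at -0.55 to IL1A at a fitted -5.00, for which only a bound can be given, and the 3 that rose stay under 0.5.

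Leukocytes are rich in NF-kB products, and most of their markers stayed at background in both groups. Of 8 leukocyte markers measured, 7, among them PTPRC (CD45), CD14 and CD3E, were not above the gauge in any array. The other was CD68, a lysosomal gene, which fell. Summed linear signals of these markers were 260.5 and 272.6 in PC3-PDEF and 886.4 and 823.1 in PC3-SCR, and CD68 made up most of the difference. Of 8 fibroblast markers, 3 fell and none rose, and 7 were not above the gauge in any array. The other was COL1A1, a collagen gene, with 7.29 and 7.10 in PC3-PDEF, against 8.66 and 8.41 in PC3-SCR, a 2.53-fold fall (adjusted p = 0.000183). Summed signals of the 8 were 312 and 286.2 in PC3-PDEF, against 606.4 and 527.8 in PC3-SCR. Of 6 endothelial markers, 3 fell and none rose. Beside the counts of these marker lists, 24% of all genes fell and 26.7% rose. KDR, a receptor of vascular endothelial growth factor, had 4.78 and 4.87 in PC3-PDEF, not above the gauge, against 6.95 and 7.15 in PC3-SCR, and was at least 2.55-fold lower (adjusted p = 1.42e-05). PECAM1, CDH5, VWF and TEK were not above the gauge in any array, and the summed signals of the 6 were 143.1 and 141.6 in PC3-PDEF, against 253.5 and 299.4 in PC3-SCR. The part of these markers in the falls of NF-kB genes was not tested.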

How the data were processed

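Total RNA of 2 PC3-PDEF and 2 PC3-SCR samples was hybridized to Affymetrix HuGene-1.0-st-v1 arrays. The deposited values are log2 signals of 33297 probe sets. Per the submitters' processing notes, Transcriptome Analysis Console was used, while its version and the steps of background correction and normalization by the authors are not stated there or in the paper. The log base was inferred from the range of values. Array medians of 5.41 to 5.46 were nearly equal, and values were used as deposited, so a shift common to all genes would not be seen. The number of arrays limits the precision.

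Probe sets were named by the platform annotation, with symbols updated from the GRCh38.p14 gene table. The 19460 with 1 symbol were kept, and 1754 with several and 12083 unnamed ones were not used. The probe set with the highest mean stood for a gene (18417 genes). The comparison used limma 3.58.1 (R 4.3.3, lmFit then eBayes, two-sided tests, degrees of freedom 2 residual plus 4.23 prior) and Benjamini-Hochberg adjustment over all genes. The procedure was tested on simulated data. Genes and lists were chosen with earlier results of these data known. Beside the genes chosen by name, the text names from each list called genes with at least a 2-fold change above the gauge in the higher group, up to 4 in each direction, the IKK genes and the other IkB-family genes. A bound replaced the dim group's values by the highest olfactory receptor gene of each array. Alternatives were quantile normalization, median centring, genes above the median level, the mean of a gene's probe sets, a fit of all probe sets, a variance trend, the replicate number as a block and leaving out each array.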

Additional observations from a re-analysis of the deposited data

How the results depend on the processing

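With 1 array left out, the lone array of its group is assumed to vary like the others. The calls and directions of NFKBIA, NFKBIZ, TNFAIP3, RELB and REL held under every alternative run that included them. The PC3-PDEF signals of RELB and NFKBIZ and the signals of NFKBIE in both groups lie near background. The adjusted p of NFKB2 was 0.0605 after median centring, 0.0637 with all probe sets fitted, 0.057 with the replicate number as a block and 0.0644 to 0.115 with 1 array left out, and RELA passed the test after quantile normalization (adjusted p = 0.0396). The cause was not tested.

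Across all genes, leaving out 1 array gave 3010 to 3635 higher and 2326 to 2856 lower genes, the fewest without PC3-PDEF replicate 2. It gave 2 to 5 higher and 4 to 6 lower genes of the IKK complex and canonical upstream list, 3 to 4 lower non-canonical genes, 2 to 5 lower receptor genes, 1 to 3 higher negative regulators and 0 to 1 higher target genes. Median centring gave 1 higher gene of the other IkB family and 2 of the non-canonical branch, as did the restriction to genes above the median level (1 and 2), which left 2 receptor genes measured, 1 of them lower. The variance trend gave 1 higher non-canonical gene, and 1 target gene was higher with all probe sets fitted and 1 with the replicate block. Same-numbered arrays shared little beyond their number (correlation of their deviations over genes 0.022), and with the block 4355 genes were higher and 3619 lower.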
